A study of Mus musculus with 4 samples.

Results

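The genes examined here are interferon gamma (Ifng), interferon beta (Ifnb1), the chains of their receptors (Ifngr1, Ifngr2, Ifnar1 and Ifnar2) and the kinases those chains carry (Jak1, Jak2 and Tyk2). They are 9 of 28074 gene symbols in the table and were matched by symbol. They were chosen by their place in the pathway and selected on their R848 and control values, paired by mouse, so the comparison of R848 with control is a description for them: no p-value is given, and nothing is read from their calls. RNA sequencing was done on leukaemic spleen cells from 2 mice, named 4050 and 4182. Each mouse gave 1 vehicle control and 1 sample treated for 3 days with 10 µg/ml R848, so n = 2 in each group. R848, or resiquimod, is a small-molecule agonist of the RNA sensors TLR7 and TLR8.

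Samples of both groups carry the genotype given as Dnmt3afl/fl,Flt3ITD/ITD,Mx1Cre, for which the same labels also write Dnmt3a+/-. Mx1Cre expresses the Cre recombinase from the interferon-inducible Mx1 promoter, and the labels do not say how Cre was induced. The medium of both groups held the cytokines SCF (60 ng/ml), IL6 (20 ng/ml) and IL3 (20 ng/ml). The myeloid identity given by the labels was checked on 17 marker genes, all of them detected. S100a8 was between 25657 and 45355 FPKM (fragments per kilobase of transcript, scaled to the library, so a level per gene length) and Lyz2 between 3993 and 6174 FPKM. Ptprc, which encodes the pan-leukocyte antigen CD45, was listed at 1.27 to 2.69 FPKM. The transcript annotation behind these values is not given in the sources used here, and its part in the Ptprc value was not tested. Linear values summed to between 950530 and 962001 per sample. The files used hold no read counts, and sequencing depth per sample is unknown.

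Interferon gamma, the type II interferon, is made chiefly by T cells and natural killer cells. It binds a receptor of Ifngr1, which carries Jak1, and Ifngr2, which carries Jak2, and the kinases activate transcription factors that bind gamma-activated sites in DNA. Interferon beta and the interferon alphas, the type I interferons, bind a receptor of Ifnar1, which carries Tyk2, and Ifnar2, which carries Jak1, and act mainly through a complex that contains Stat2 and Irf9. Stimulated TLR7 is known to drive type I interferon strongly in plasmacytoid dendritic cells.

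The sequences before the starts of both ligand genes are shown because one ligand was detected with R848 and the other was at or near 0 in every sample. They are the 250 bases before the RefSeq start, on the gene's strand, in GRCm38.p6. Capitals mark matches on either strand to an interferon regulatory factor core (AANNGAAA), a gamma-activated site (TTCNNNGAA) or a TATA box (TATAAA).
Ifng, chr10:118440796-118441045, plus strand: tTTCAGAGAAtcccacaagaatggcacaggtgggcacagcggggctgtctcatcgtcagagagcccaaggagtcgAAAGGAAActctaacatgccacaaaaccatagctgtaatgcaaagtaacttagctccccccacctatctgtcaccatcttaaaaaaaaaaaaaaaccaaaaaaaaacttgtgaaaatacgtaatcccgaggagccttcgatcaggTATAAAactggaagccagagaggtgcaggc
Ifnb1, chr4:88522795-88523044, minus strand: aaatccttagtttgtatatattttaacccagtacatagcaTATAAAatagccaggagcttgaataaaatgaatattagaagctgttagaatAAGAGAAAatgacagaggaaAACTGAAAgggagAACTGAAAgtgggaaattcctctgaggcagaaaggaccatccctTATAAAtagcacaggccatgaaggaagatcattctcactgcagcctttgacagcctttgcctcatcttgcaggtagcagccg

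The Ifng sequence held 1 gamma-activated site match, 1 interferon regulatory factor core and 1 TATA box. The Ifnb1 sequence held 3 interferon regulatory factor cores and 2 TATA boxes, and no gamma-activated site match. Of 32851 RefSeq promoter windows of the same length, 21.3% held the interferon regulatory factor core, 7.02% the gamma-activated site and 12.4% the TATA box. All 9 genes had a window. Of the 7 receptor and kinase genes, Ifnar2 held 1 gamma-activated site match, and none of the motifs matched in the windows of the other 6. A match of letters is a description and not a binding site.

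Ifng was at or near 0 in the controls and detected in both R848 samples. Ifng (GRCm38 chromosome 10, 118441046 to 118445892) was listed at 0 FPKM in the control of mouse 4050 and was at 0.0364 FPKM in the control of mouse 4182. With R848 it was at 4.39 FPKM in mouse 4050 and 15.8 FPKM in mouse 4182. Both R848 samples lay above both controls, and the R848 samples differed more from each other than the controls did. On the log2(FPKM + 1) scale Ifng was 3.22 higher with R848, by 2.43 in mouse 4050 and by 4.02 in mouse 4182. The SD between the R848 samples on that scale was 1.16, against 0.04 in the controls (n = 2 each). With a pseudocount of 0.1 the difference was 6.18, so its size depends on the pseudocount and it is not given as a fold change.

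Of the 9 genes, 8 had a mean of at least 1 FPKM and entered a limma fit over 12612 genes, and 1 of them, Ifng, passed an adjusted p of 0.05. In that fit 1.85% of all genes passed. With the mouse as a block the count of members was again 1, while 5.3% of all genes passed. Ifng met the minimum mean through its R848 samples only, and the comparison also served to choose the genes, so this count supports nothing. Ifng was not past the threshold after quantile normalization or median log ratio scaling, without a minimum level, or without the R848 sample of mouse 4182. Without a minimum level 0 genes were called by limma, with 1880 of 21710 at an unadjusted p under 0.05. In bulk RNA, more cells that express a gene and more of its RNA per cell cannot be told apart.

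Ifnb1 (chromosome 4, 88522025 to 88522774) was listed at 0 FPKM in 3 samples and at 0.0509 FPKM in the R848 sample of mouse 4182. Its mean was below the minimum. The other interferons that were matched were also near 0, the highest single value being 0.197 FPKM, for Ifnk. Of 13 matched genes in a list of 21 further interferons and type III receptor chains, 7 were at 0 in all samples. Ifna1, Ifna5, Ifna6, Ifna9, Ifna14, Ifna15, Ifna16 and Ifnz were not matched, so their levels are unknown. The 2 that reached the minimum were receptor chains, Ifnlr1 and Il10rb, with log2 differences of -0.18 and -0.07, neither past the threshold (limma adjusted p = 0.905 and 0.914). Near-identical interferon alpha copies share sequence, so their separate values are uncertain.

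**Figure D1:**
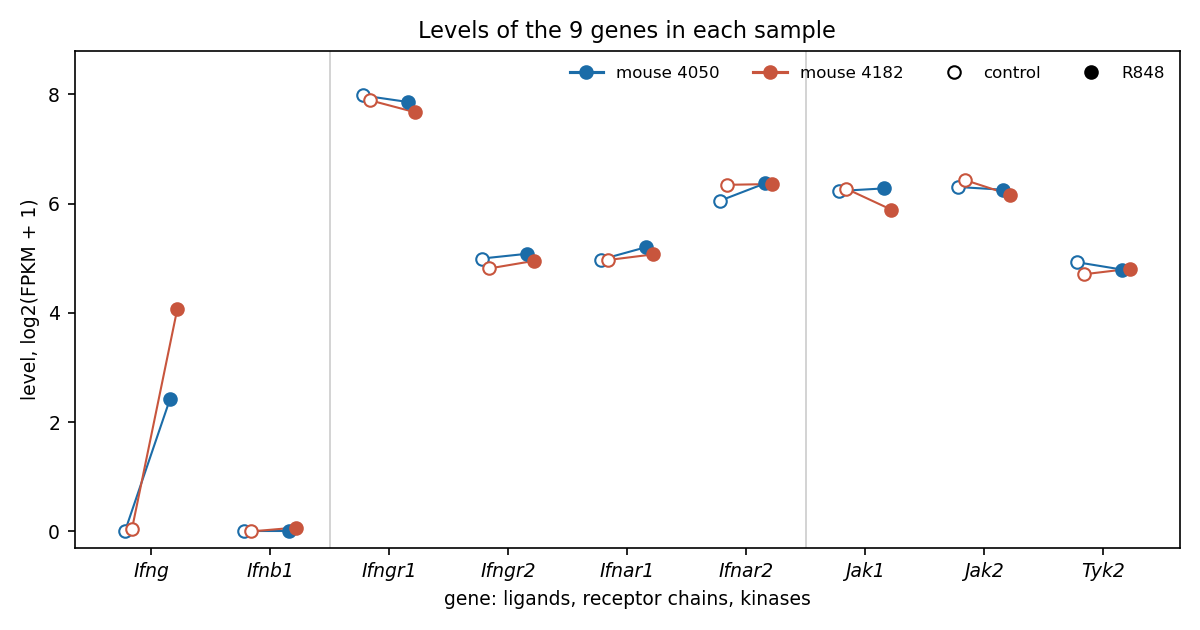
Level of each gene as log2(FPKM + 1) in each sample, with open points for control and filled points for R848, and a line joining the samples of each mouse. Ifng is at 0.00 and 0.05 in the controls and at 2.43 and 4.07 with R848, Ifnb1 reaches 0.07 in 1 sample, and the receptor chains and kinases lie between 4.71 and 7.98.

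The receptor chains and kinases were all detected in the controls. Across the 7 genes and 4 samples the levels ran from 25.1 to 252 FPKM. Ifngr1, the ligand-binding chain for interferon gamma, was highest in every sample. Next came Ifnar2, Jak2 and Jak1, between 58.3 and 85.3 FPKM, whose ranges overlapped and whose order changed between samples. Ifnar1, Ifngr2 and Tyk2 were between 25.1 and 35.9 FPKM, again with overlapping ranges. Ifng, at its highest, was still below each of these 7 genes.

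Ifngr1 (chromosome 10, 19591949 to 19610229) was at 252 and 237 FPKM in the controls of mice 4050 and 4182 and at 232 and 203 FPKM with R848. Both R848 samples were below both controls, and the log2 difference was -0.17, with -0.12 in mouse 4050 and -0.22 in mouse 4182. Ifngr2 (chromosome 16, 91547072 to 91565623), the chain that brings Jak2, was at 30.9 and 27.1 FPKM in the controls and at 32.9 and 30.0 FPKM with R848. Its groups overlapped, with a log2 difference of 0.11 (0.09 and 0.14 in mice 4050 and 4182). Within each sample, Ifngr1 exceeded Ifngr2 by a ratio of FPKM of 8.14 and 8.72 in the controls and 7.04 and 6.77 with R848. These ratios did not overlap between the groups. Ratios were computed for several pairs of the members, with no share over other gene pairs, so this is a description.

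The type I receptor chains lie near Ifngr2 on chromosome 16. Ifnar1 (91485238 to 91507441), which carries Tyk2, was at 30.5 and 30.3 FPKM in the controls of mice 4050 and 4182 and at 35.9 and 32.6 FPKM with R848. Both R848 samples were higher, and the log2 difference was 0.17 (0.23 and 0.10). Ifnar2 (91372783 to 91405589), which carries Jak1, was at 65.5 and 80.3 FPKM in the controls and at 81.9 and 81.1 FPKM with R848. Its R848 samples were just above the higher control. The log2 difference of 0.17 came mostly from mouse 4050, with 0.32 there and 0.01 in mouse 4182. The ratio of Ifnar2 to Ifnar1 was 2.15 and 2.65 in the controls and 2.28 and 2.49 with R848, which overlap.

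A list of 8 neighbours of these genes on chromosome 16 had 6 tested members. By limma, 0 of the 6 were called, and 0 were under 0.05 before adjustment. Their median log2 difference was -0.01 beside -0.08 over all tested genes. The smallest p-values belonged to Dnajc28, a J-domain protein, at -0.47, and Tmem50b, a membrane protein, at 0.30 (limma adjusted p = 0.470 and 0.625). Il10rb, the shared receptor chain in this cluster for interleukin-10 and the type III interferons, was at 40.8 and 40.9 FPKM in the controls and at 40.7 and 37.0 FPKM with R848.

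Among the kinases, Jak1 (chromosome 4, 101152367 to 101265282), which serves both receptors, was at 74.2 and 76.4 FPKM in the controls of mice 4050 and 4182 and at 76.7 and 58.3 FPKM with R848. The mice went in opposite directions, with log2 differences of 0.05 and -0.38. The mean, -0.17, was 0.03 without the R848 sample of mouse 4182. Jak2 (chromosome 19, 29251828 to 29313080), the kinase of Ifngr2 and of many growth factor receptors, was at 78.1 and 85.3 FPKM in the controls and at 75.4 and 70.6 FPKM with R848. Both R848 samples were below both controls, with a log2 difference of -0.16 (-0.05 and -0.27). Tyk2 (chromosome 9, 21104068 to 21131243), the kinase of Ifnar1, was at 29.5 and 25.1 FPKM in the controls and at 26.7 and 27.0 FPKM with R848. Its R848 samples lay between its controls, with a log2 difference of -0.02 that became 0.06 and 0.02 after median log ratio scaling and quantile normalization, and 0.09 without the control of mouse 4050.

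For the 7 receptor and kinase genes the mean log2 differences ran from -0.17 to 0.17. On the values as deposited, all 7 were smaller in size than 0.183, the median absolute difference over all tested genes. After median log ratio scaling Ifnar1 and Ifnar2 were at 0.24 and Ifngr2 at 0.19. Ifngr1, Jak1 and Jak2 were then between -0.10 and -0.09. After quantile normalization Ifngr1 was at -0.20 and Ifnar1 at 0.19. The median absolute difference over all genes was not computed for the rescaled values. In 5 of the 7 the sign was the same in both mice. The share of all tested genes with the same sign was not computed, so nothing is read from this count. In 4 of the 7 the groups did not overlap, with Ifngr1 and Jak2 lower and Ifnar1 and Ifnar2 higher with R848, while 42.2% of all tested genes had groups that did not overlap.

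**Figure D2:**
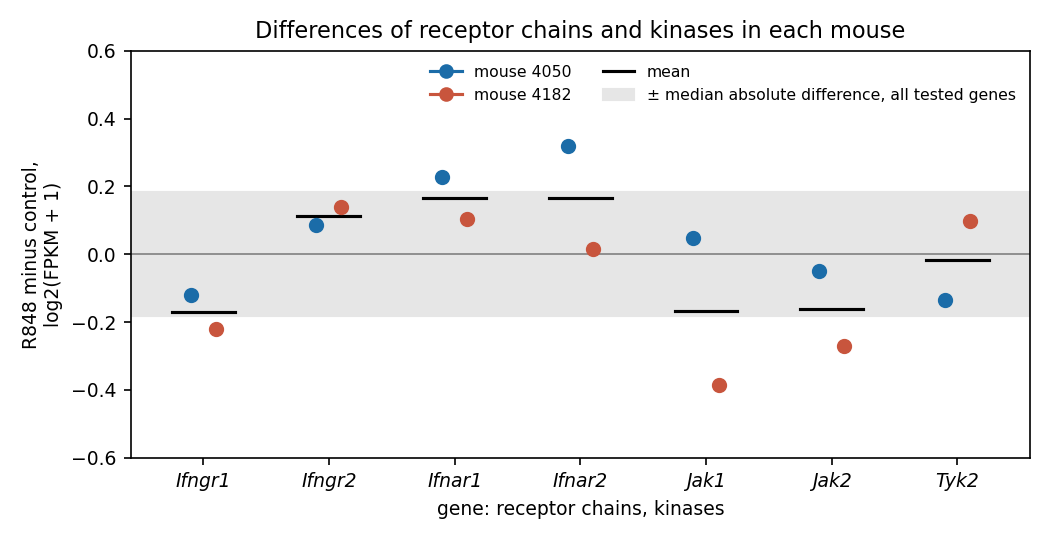
Difference between R848 and control in log2(FPKM + 1) for each receptor chain and kinase, with a point for each mouse, a bar for the mean and a grey band of ± 0.183, the median absolute difference of all tested genes. The means run from -0.17 to 0.17 and lie inside the band. The single values outside it are those of Ifngr1, Jak1 and Jak2 in mouse 4182, at -0.22, -0.38 and -0.27, and those of Ifnar1 and Ifnar2 in mouse 4050, at 0.23 and 0.32.

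Genes whose values followed those of 3 of the members were sought among 10931 other genes by the root mean square difference of log2(FPKM + 1), each less its mean over the 4 samples. For Ifng the smallest were Fam26f (0.12), Serpina3f (0.19) and Cp (0.20). Fam26f, now called Calhm6, was at 1.10 and 0.787 FPKM in the controls and at 9.82 and 29.4 FPKM with R848. Cp, which encodes the copper carrier ceruloplasmin, was at 5.23 and 6.81 FPKM in the controls and at 38.4 and 88.6 FPKM with R848. As for Ifng, mouse 4182 had the higher R848 value for both. For Ifngr1 the smallest were Mri1, Nelfa and Espl1, and for Jak2 they were Hpcal1, Eml1 and Klhl7, all between 0.0059 and 0.012. With 4 samples these lists are descriptions.

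Lymphocyte genes were measured beside Ifng because the labels describe no sorting. Of 20 T cell, natural killer cell and innate lymphoid markers, 13 were tested. Of these 3 rose and 0 fell, and 1.47% of all genes in the fit rose. Trbc1 and Trac, constant regions of the T cell receptor, rose by 1.95 and 1.64 on the log2 scale, and Cd3g, a chain of its CD3 complex, rose by 1.74 (limma adjusted p = 0.0194, 0.0478 and 0.0327). Trbc1 was at 0 and 0.206 FPKM in the controls of mice 4050 and 4182 and at 2.62 and 3.99 FPKM with R848. All 3 met the minimum mean through their R848 samples only, so nothing is read from their calls. Their control means were 0.103 FPKM for Trbc1, 0.290 FPKM for Trac and 0.136 FPKM for Cd3g. The 3 calls were lost under both rescalings and without either R848 sample, and that of Trac also without the control of mouse 4182. Of the 3, 1, Trbc1, passed with a pseudocount of 0.1, and 6 members rose with the mouse as a block, where 3.4% of all genes rose and 1.9% fell.

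Summed over the 20 markers, the level was 162 and 270 FPKM in the controls and 264 and 278 FPKM with R848. Most of that sum was Nkg7 and Gzmb, a granule membrane protein and a cytotoxic protease. Nkg7 was at 126 and 201 FPKM in the controls and at 193 and 197 FPKM with R848. Summed over Cd3d, Cd3e, Cd3g, Trac, Trbc1 and Trbc2, chosen after their values were seen, the level was 2.83 and 4.32 FPKM in the controls and 12.6 and 21.7 FPKM with R848. Cd3d did not follow that sum, at 1.38 and 2.41 FPKM in the controls and 1.71 and 2.04 FPKM with R848. Il7r, another marker of the list, was lower in both mice, by -0.66 and -0.85 on the log2 scale (limma adjusted p = 0.373). Ncr1 and Klrb1c, defining genes of natural killer cells, were at 0.17 FPKM or less in every sample. Other receptor genes of the list were detected. Klrk1 was at 1.93 and 1.16 FPKM in the controls and at 3.25 and 5.44 FPKM with R848 (log2 difference 1.06, limma adjusted p = 0.177). Klrd1 was at 3.79 to 5.37 FPKM across the samples. Il2rb, which met the minimum mean through its R848 samples only, differed by 1.01 (limma adjusted p = 0.166, and 0.0457 with the block). Tbx21 and Eomes, transcription factors that drive Ifng, were below the minimum mean and not tested. Tbx21 was at 0.102 and 0.0819 FPKM in the controls and at 0.262 and 0.722 FPKM with R848. Eomes was at 0.19 FPKM or less in every sample. Markers of B and plasma cells also moved, with 5 of 8 tested members rising and 0 falling. These 5 also met the minimum mean through their R848 samples only, so nothing is read from their calls. Among them were Cd79a, Ms4a1, Jchain (listed as Igj) and Mzb1, and Jchain and Mzb1 also passed without either R848 sample in turn. Summed over that list of 10, the level was 544 and 699 FPKM in the controls and 722 and 662 FPKM with R848, most of it Xbp1. Of 17 myeloid markers 1 rose and 0 fell, with a median of -0.14. It was Adgre1 (listed as Emr1), a macrophage marker, by 1.43 on the log2 scale (limma adjusted p = 0.00709), and it did not pass without either R848 sample in turn. The fit blocked on mouse called 4 myeloid markers, 3 higher and 1 lower. Beside Adgre1 these were Csf1r, the receptor of a macrophage growth factor, and the monocyte marker Ly6c2, at 0.67 and 0.84 (limma adjusted p = 0.0215 and 0.0398), and Cd34, a progenitor marker, at -1.11 (limma adjusted p = 0.00187). Cd34 was at 26.6 and 39.9 FPKM in the controls of mice 4050 and 4182 and at 12.1 and 17.4 FPKM with R848, and it also passed without the control of mouse 4050. Of 5 matched erythroid markers 0 were tested, and the highest value was 1.23 FPKM. The part of these cells in the Ifng values was not tested.

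**Figure D3:**
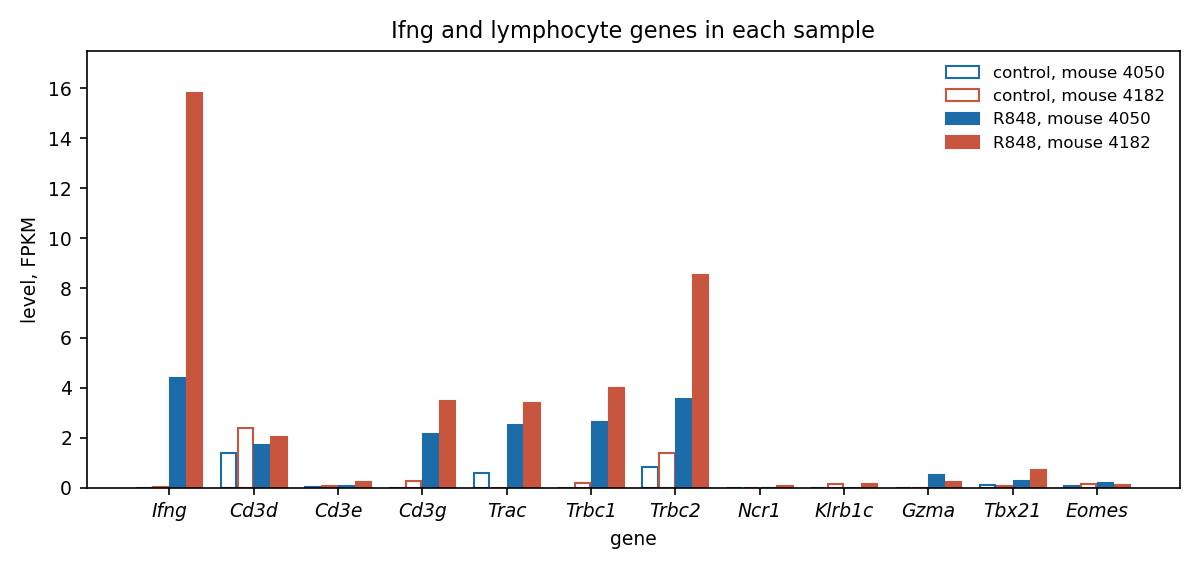
Level in FPKM of Ifng and of 11 lymphocyte genes, chosen for display after their values were seen, with 4 bars per gene in the order control of mouse 4050, control of mouse 4182, R848 of mouse 4050 and R848 of mouse 4182. Ifng reaches 4.39 and 15.8 FPKM with R848, Cd3g, Trac, Trbc1 and Trbc2 are also higher in both R848 samples, and Ncr1 is at most 0.07 FPKM. The R848 values of Cd3d lie between its controls.

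Genes that drive the ligands were read against all genes in the fit, of which 1.47% rose. Of 20 tested genes of the relay from nucleic acid sensors to Ifnb1, 1 rose and 0 fell, with a median of -0.03. It was Irf7, a transcription factor for type I interferons that interferon itself induces, which went from 8.61 ± 0.00846 FPKM in control to 28.0 ± 11.6 FPKM with R848 (SD, n = 2 each; log2 difference 1.53, limma adjusted p = 0.0436). With the mouse as a block 3 rose, and none passed without the R848 sample of mouse 4182 or under either rescaling. Of 11 tested genes that drive Ifng, 1 rose and 0 fell, with a median of 0.28. It was Il27, a subunit of interleukin-27, which went from 3.20 ± 0.255 to 9.28 ± 1.63 FPKM (log2 difference 1.28, limma adjusted p = 0.0340). With the block 3 rose, and none passed without either R848 sample in turn or under either rescaling. Il27 also did not pass without the control of mouse 4182. Interleukin-12 subunit Il12a had a log2 difference of 1.10 (limma adjusted p = 0.0968, and 0.00854 with the block), and Il12b was at 0.37 FPKM or less. Of 10 plasmacytoid dendritic cell markers, 6 were tested, 1 rose and 0 fell, with a median of -0.39. The gene that rose was Ly6d, which B lineage cells also express and which did not pass without either R848 sample in turn. Ly6d was at 0 FPKM in both controls and met the minimum mean through its R848 samples only. Cox6a2, Runx2 and Tcf4 were lower in both mice, at -1.92, -0.81 and -0.47, and did not pass (limma adjusted p = 0.211, 0.165 and 0.488). Pld4, the most abundant of the list, was at 0.39, with -0.09 in mouse 4050 and 0.87 in mouse 4182. Spib was at -0.32, with 0.33 and -0.97 in those mice, and neither passed (limma adjusted p = 0.610 and 0.793). The fit blocked on mouse called 1 higher and 1 lower, and the lower one was Cox6a2 (limma adjusted p = 0.000164), which also passed without the control of mouse 4050. Siglech, the defining marker, was at 0.66 to 1.00 FPKM.

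Downstream, 3 of 11 tested STAT and interferon regulatory factor genes rose and 0 fell, with a median of 0.28. Over all genes 1.47% rose. Irf1, a transcription factor that interferon gamma induces, was at 58.9 and 57.7 FPKM in the controls of mice 4050 and 4182 and at 216 and 285 FPKM with R848 (2.07 higher on the log2 scale, SE 0.18, limma adjusted p = 0.00351). Irf9, the DNA-binding part of the type I complex, rose by 0.98 (limma adjusted p = 0.0436). Stat2, its partner, was at 0.62 and did not pass (limma adjusted p = 0.230). Irf1 passed under both rescalings and Irf9 under neither. Irf9 also did not pass without either R848 sample or the control of mouse 4050.

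Of 16 genes listed as negative regulators of the pathway, or brakes, 2 rose and 0 fell, with a median near 0 (-0.0013). The share of all genes that rose was 1.47%. Socs1, which binds and inhibits the kinases, was at 26.2 ± 5.39 FPKM in control and 58.4 ± 8.47 FPKM with R848 (SD, n = 2 each) and rose by 1.13 on the log2 scale (limma adjusted p = 0.0419). Nmi, a protein that binds STAT factors and whose place among the brakes is uncertain, rose by 1.48 (limma adjusted p = 0.0215). With the mouse as a block 3 rose and 2 fell, among them Cish and Socs2, feedback inhibitors induced through Stat5, at -0.85 and -0.65 (limma adjusted p = 0.0228 and 0.0389). Both calls made without the block were lost under either rescaling and without either R848 sample in turn, and that of Socs1 also without the control of mouse 4182.

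Of 20 tested genes known as targets of interferon gamma, 15 rose and 0 fell, while 1.47% of all genes rose. All 20 had higher R848 values in each mouse. The share of all genes with higher values in both mice was not computed. The list's median log2 difference was 2.61 (2.57 in mouse 4050, 3.09 in mouse 4182). Tgtp2, an immunity-related GTPase, was at 6.22 and 8.30 FPKM in the controls and at 154 and 306 FPKM with R848 (log2 difference 4.73, SE 0.32, limma adjusted p = 0.00124). Tgtp1 is a near-identical copy, so reads may be split between them. Irgm2, of the same family, rose by 2.70 (SE 0.20, limma adjusted p = 0.00156). The differences were uneven, and the smallest of the 20 was that of Ciita, at 0.26 (limma adjusted p = 0.746). Cxcl9 and Ido1, also of the list, were at 0.63 FPKM or less in every sample and were not tested. Of the 15 genes that rose, 11 also passed under both rescalings.

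Of 21 tested genes known as targets of type I interferon, 11 rose and 0 fell, while 1.47% of all genes rose. All 21 were higher in both mice. Here too the share of all genes higher in both mice was not computed. The list's median was 1.53 (1.18 in mouse 4050, 1.94 in mouse 4182). Ifitm3, which blocks virus entry, was at 190 and 168 FPKM in the controls and at 573 and 669 FPKM with R848 (log2 difference 1.79, SE 0.16, limma adjusted p = 0.00368). Oasl2, a relative of the oligoadenylate synthetases, rose by 3.29 (SE 0.32, limma adjusted p = 0.00446). With the mouse as a block 20 rose, while 3.4% of all genes rose in that fit. After quantile normalization 3 passed, after median log ratio scaling 5, without the R848 sample of mouse 4182 1 and without that of mouse 4050 6. Neither Ifitm3 nor Oasl2 passed without the R848 sample of mouse 4182 (limma adjusted p = 0.0556 and 0.0559). Both interferon types induce many genes of both lists, and the lists were not tested against each other.

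Other cytokine receptors that use the same kinases were compared with the members. Of 16 tested genes in that list 0 rose and 1 fell, with a median of 0.03, while 0.381% of all genes fell. The gene was Il6st, the gp130 chain through which interleukin-6 signals, at 27.5 and 31.9 FPKM in the controls of mice 4050 and 4182 and at 7.90 and 7.39 FPKM with R848. On the log2 scale it fell by 1.83 (SE 0.18, limma adjusted p = 0.00446), and it passed under both rescalings but not when the R848 sample of mouse 4182 was left out (limma adjusted p = 0.0581). IL6 was in the medium of both groups. With the mouse as a block 1 rose and 2 fell, among them Il12rb1, a chain of the interleukin-12 receptor, at 1.10, and Lifr, a partner of gp130, at -1.30 (limma adjusted p = 0.0132 and 0.00845).

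**Figure D4:**
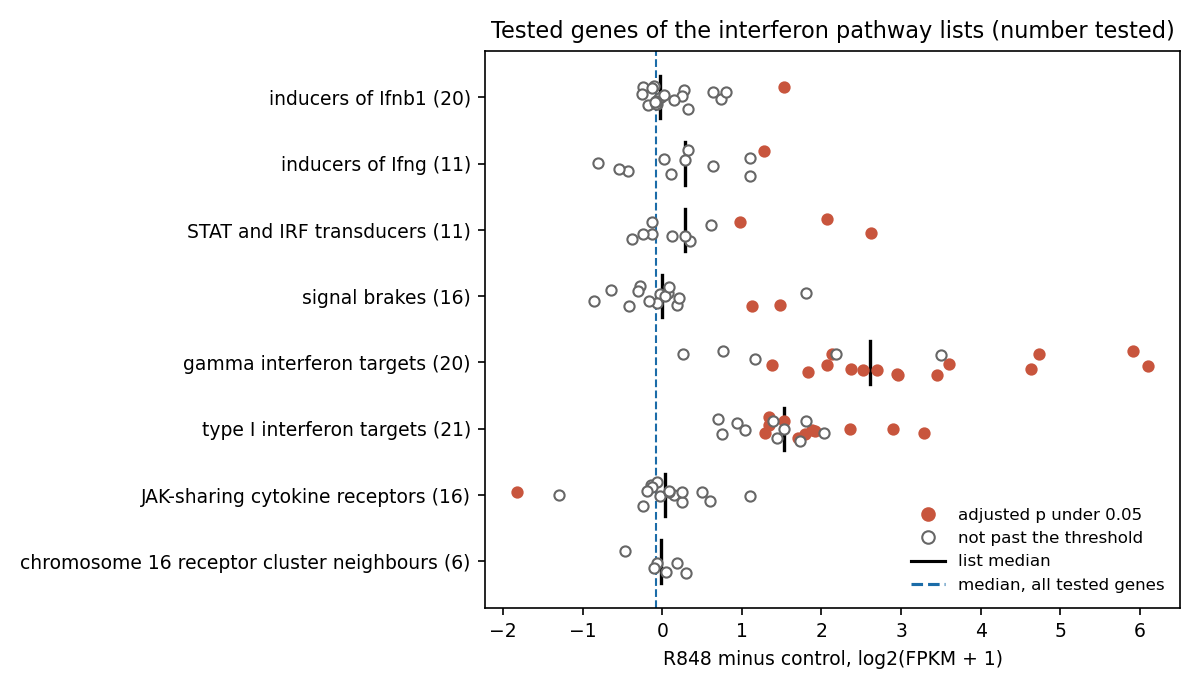
Difference between R848 and control in log2(FPKM + 1) for the tested genes of 8 pathway lists, with filled points for genes past the limma threshold, black bars for list medians and a dashed line at -0.08, the median of all tested genes. The medians are 2.61 for gamma interferon targets and 1.53 for type I interferon targets, and lie between -0.03 and 0.28 for the other 6 lists.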

How the data were processed

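Per the labels' protocols, spleen cells were thawed, recovered for 24 hours and treated. The protocols mention ribosomal depletion and also a stranded mRNA kit, and the captured RNA class is therefore uncertain. The submitters' processing notes name kallisto and mm10; versions and annotation are not given in the sources used here. For each gene and sample the authors deposited 1 log2 value, which they named log2 FPKM and whose lowest value of 0 fits log2(FPKM + 1). The linear values have nearly equal sums in all samples, as TPM would, and no counts were used.

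From 28192 rows, 27 names turned into dates and 91 repeats were dropped. The 12612 genes whose mean reached 1 FPKM were fitted on log2(FPKM + 1) by limma 3.58.1 (R 4.3.3), without a block and with a trended prior. Tests were two-sided, and p-values were adjusted by Benjamini-Hochberg over all 12612 genes. The test was tested on simulated data. Called, rose and fell mean an adjusted p under 0.05. Each gene had 2 residual degrees of freedom beside a prior with 5.27, so the p-values lean on the variance pooled over genes.

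The mouse number pairs control and R848 samples of 1 animal, per the labels, and their deviations from group means correlated at 0.289 across genes. A fit blocked on mouse stands beside results whose call or count (by over 1.5 times) it altered. The alternatives were that fit, a pseudocount of 0.1, no filter or one of 5 FPKM, quantile normalization, median log ratio scaling, a constant prior and leaving out each sample. The members and the 14 gene lists (216 symbols, 11 of them not matched, 5 matched by an older symbol, 7 in more than 1 list) were chosen with earlier results of these data known. Beside the members, the text names from each pathway list the 2 risers and 2 fallers with the smallest adjusted p, or the 2 smallest p where none passed, and the 2 most abundant or otherwise defining markers. Other called or near-called genes were named after their values were seen, and some genes that the rule covers are not reported here. Sequences are RefSeq's, and gene coordinates come from GENCODE release M21 (GRCm38). Plots used matplotlib 3.10.9 (Python 3.11.15).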

Additional observations from a re-analysis of the deposited data

How the results depend on the processing

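Of 56 recomputed differences of the 8 tested members, 4 changed sign, all in Tyk2 or Jak1. The Ifng difference went to 6.18 with a pseudocount of 0.1 and that of Ifnar1 to 0.24 with median log ratio scaling. The counts below are of called genes, for all tested genes (185 higher and 48 lower as reported) and for the members (1) and lists. With no filter on low values all counts were 0 by limma over 21710 genes, of which 1880 had an unadjusted p under 0.05. After quantile normalization 76 genes were higher and 12 lower, and after median log ratio scaling 91 and 15. Under both, the members, the inducers of Ifnb1, the inducers of Ifng and the brakes had 0, and the type I targets had 3 and 5. With the mouse as a replicate block 429 genes were higher and 240 lower, with 3 inducers of Ifnb1, 3 inducers of Ifng, 5 brakes, 20 type I targets and 3 JAK-sharing receptors. A constant variance prior gave 0 inducers of Ifnb1, 1 brake and 2 JAK-sharing receptors. Leaving out each sample in turn gave 46 to 259 higher and 10 to 136 lower genes, with the fewest higher genes without the R848 sample of mouse 4182. It also gave 0 to 1 members, 0 to 1 inducers of Ifnb1, 0 to 1 inducers of Ifng, 2 to 3 transducers, 0 to 3 brakes, 10 to 17 gamma targets, 1 to 14 type I targets and 0 to 2 JAK-sharing receptors. The causes were not tested. Of the marker lists, the T and natural killer list (3 as reported) had 6 with the block, 1 with a pseudocount of 0.1, 0 under both rescalings or above 5 FPKM and 0 to 4 with a sample left out. The B and plasma list (5) had 2 above 5 FPKM and 2 to 5 with a sample left out. The myeloid list (1) had 4 with the block, the plasmacytoid list (1) had 2 with the block and 0 above 5 FPKM, and both had 0 to 2 with a sample left out. Counts that are not given stayed within 1.5 times, and depth is unknown, so values near 0 FPKM carry no floor.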
